A study of Homo sapiens with 4 samples.

Results

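PML, 5 retinoid receptor genes and 4 genes of the retinoid response were followed in the RNA of cells labelled NB4, an acute promyelocytic leukemia line known for its PML-RARA fusion. These 10 genes (PML, RARA, RARB, RARG, RXRA, RXRB, CYP26A1, CYP26B1, CRABP2 and DHRS3) were taken by name from the 64252 genes of the count table, through their Ensembl identifiers. The cells received 8 μM dBET1, a degrader that tethers BET proteins to the ubiquitin ligase subunit CRBN, or DMSO, its solvent, and RNA was sequenced after 24 h. Each group had 2 libraries of this 1 cell line, and the labels name no added retinoid. The labels do not say whether the libraries of a group came from separate cultures, so p-values measure the spread between these libraries, which may be technical.

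Retinoic acid is made from retinol in successive oxidations, by retinol dehydrogenases and then by ALDH1A enzymes, and is broken down by CYP26 enzymes. In the nucleus it binds a retinoic acid receptor (RAR), which sits with a retinoid X receptor (RXR) on DNA, most often on a direct repeat of a short half-site. Without ligand the pair recruits corepressors and with ligand coactivators. PML builds the nuclear bodies that bear its name, and in acute promyelocytic leukemia the PML-RARA fusion holds retinoic acid targets down until the drug all-trans retinoic acid releases them. Counts per gene do not separate reads of such a fusion from reads of intact PML or RARA.

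The label was checked against lineage markers before the members were compared. Of the promyelocyte genes, MPO had 0 counts in both DMSO libraries and 22 and 10 with dBET1, ELANE and CTSG had 0 in all 4 libraries, AZU1 had 14 to 23 and PRTN3 had 0 to 10. The whole list of 14 promyelocyte markers summed to 129 CPM in each DMSO library and to 84.3 and 84.5 CPM with dBET1 (CPM, counts divided by the TMM-normalized library size). Most of that sum came from FUT4 at 52.3 ± 3.80, SPI1 at 28.2 ± 0.767, LYZ at 17.9 ± 0.698, CFD at 14.6 ± 2.82 and CD33 at 10.9 ± 1.43 CPM with DMSO (SD, n = 2), of which LYZ and CFD encode granule proteins. The 15 erythroid markers summed to 9070 and 10200 CPM with DMSO and to 5360 and 5320 CPM with dBET1. GATA1 and KLF1, erythroid transcription factor genes, reached 221 ± 20.1 and 230 ± 29.2 CPM with DMSO (SD, n = 2), and the fetal globin gene HBG2, which shares reads with its near-identical copy HBG1, reached 2720 ± 368 CPM (SD, n = 2). The sums of other lineages ran from 0.712 to 2.03 CPM for 8 monocyte markers, from 1.89 to 2.72 for 5 B cell markers, from 3.43 to 8.35 for 6 megakaryocyte markers and from 13.1 to 41.6 for 7 T cell markers, nearly all of the latter from CD3D and CD3G. The 5 primary granule genes given first were thus at or near 0, and other myeloid markers were detected, in libraries rich in erythroid transcripts, and the cells are named below only as labelled. Whether the cells carry the PML-RARA fusion cannot be told from these counts.

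Totals ran from 28019956 to 34685645 counts per library, and the filter on low counts kept 17971 genes. Of these, 55.6% were called at an adjusted p under 0.05 (edgeR's quasi-likelihood test, Benjamini-Hochberg adjustment over all tested genes), 28.0% higher and 27.6% lower after dBET1. Adding the study's limit of an absolute log2 fold change above 1 left 25.4% called, 16.9% higher and 8.54% lower. Scaling to total counts alone would move the median log2 fold change of all tested genes from 0.05 to 0.26, and directions below are relative to the TMM scale unless stated.

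The sequences below show what a retinoic acid response element looks like in this gene set. RefSeq promoter windows (250 bases before to 50 after a start site, GRCh38.p14) were found for 9 of the 10 members, 19 windows in all. They were searched on both strands for the consensus half-site AGGTCA, its variant AGTTCA and the forms of each that begin with G, namely GGGTCA in the first case and GGTTCA in the second, in direct repeats with 1, 2 or 5 bases between them. A repeat with 5 bases between its half-sites (DR5) was present in 1 window of RARB and 1 window of CYP26A1, against 31 of 34943 windows of all genes (0.0887%). The members were chosen as retinoid genes and the half-sites as those of retinoid elements, so this contrast is no test. No repeat with 1 or 2 bases between half-sites was found in a member's window, and these occurred in 0.132% and 0.0372% of all windows. The RARB element lies at chr3:25428210-25428226, from 53 bases before the start site, on the strand of the gene. The CYP26A1 element lies at chr10:93073803-93073819, from 90 bases before the start site, on the opposite strand. Read 5′ to 3′ along their own strands, with every base in capitals, both elements end in the half-site AGTTCA.
RARB element: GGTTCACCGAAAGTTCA
CYP26A1 element: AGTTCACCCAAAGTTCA
The whole windows are given along the strand of each gene with the half-sites in capitals, because these are the members' windows that hold a match, and the RNA of both genes was nearly absent in all 4 libraries.
RARB window, chr3:25428013-25428312, forward strand: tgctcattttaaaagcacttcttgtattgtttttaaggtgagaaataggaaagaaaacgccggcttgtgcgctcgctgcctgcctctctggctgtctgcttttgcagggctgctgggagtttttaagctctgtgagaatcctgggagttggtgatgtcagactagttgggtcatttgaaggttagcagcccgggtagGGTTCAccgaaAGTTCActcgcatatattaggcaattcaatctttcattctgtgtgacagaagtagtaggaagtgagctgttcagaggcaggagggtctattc
CYP26A1 window, chr10:93073643-93073942, forward strand: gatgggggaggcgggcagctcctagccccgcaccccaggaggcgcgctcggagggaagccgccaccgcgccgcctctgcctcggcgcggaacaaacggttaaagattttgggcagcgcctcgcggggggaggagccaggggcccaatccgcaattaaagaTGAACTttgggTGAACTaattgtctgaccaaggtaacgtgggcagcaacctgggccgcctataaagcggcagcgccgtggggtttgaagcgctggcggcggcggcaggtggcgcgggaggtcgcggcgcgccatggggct
A match is a description of the letters in the window and no record of binding. Genes with a DR5 window numbered 29, of which 9 passed the count filter, 4 of them higher at an adjusted p under 0.05 in edgeR (28.0% of all tested genes were) and the other 5 not called (27.6% of all tested genes were lower). The 4, named after their values were seen, were CFLAR, HROB, PHF8 and PRSS27. Of these, PRSS27 passed the count filter only through its dBET1 libraries. Neither RARB nor CYP26A1 was among the 9.

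Of the 10 members, 7 passed the count filter, and 5 of these were called after dBET1. RARA, RARG and DHRS3 fell, 3 of 7 (27.6% of all tested genes were lower), while RXRA and RXRB rose, 2 of 7 (28.0% of all tested genes were higher). RARG and DHRS3 also passed the limit on the fold change downwards, 2 of 7 (8.54% of all tested genes). No member passed it upwards (16.9% of all tested genes did). PML and CRABP2 were tested and not called. RARB, CYP26A1 and CYP26B1 did not pass the filter. The median log2 fold change of the 7 was -0.20, against 0.05 over all tested genes. The CPM of the groups did not overlap for any of the 7, as for 79.3% of all tested genes. In bulk RNA, fewer cells of a type and less RNA per cell cannot be told apart.

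**Figure D1:**
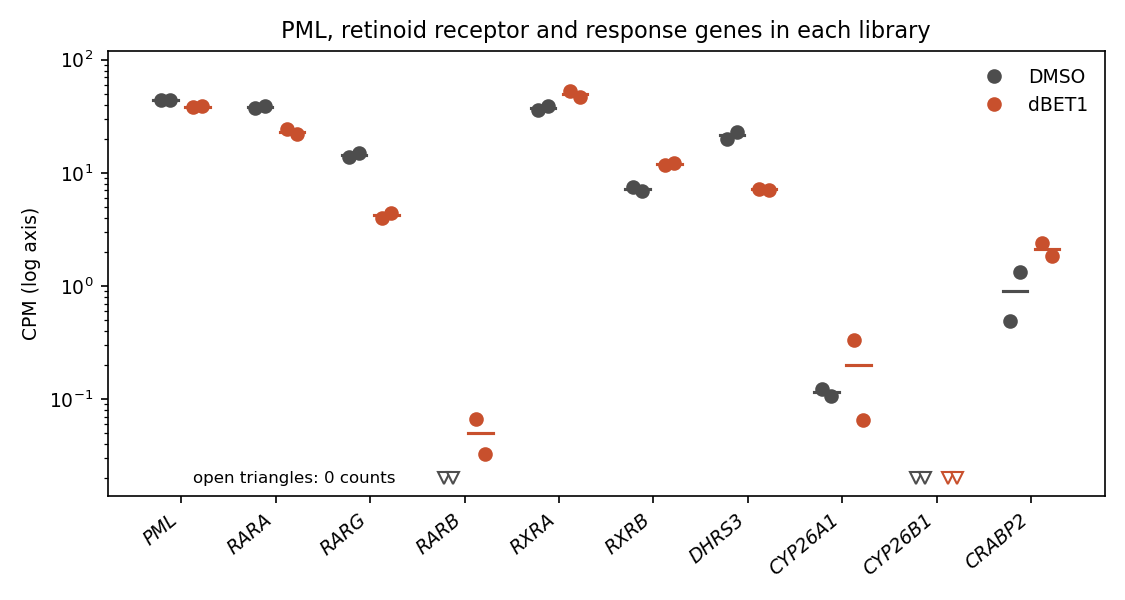
CPM of the 10 members in each library on a log axis, with DMSO in grey, dBET1 in orange, horizontal lines at group means and open triangles at 0 counts. RARG and DHRS3 show the widest gaps between the groups among the abundant members, and RARB, CYP26A1 and CYP26B1 reach at most 0.333 CPM in any library.

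RARA (chr17:40309180-40357643, forward strand of hg38) encodes retinoic acid receptor alpha, whose DNA and ligand binding parts enter the leukemic fusion. It had 1221 and 1085 counts with DMSO and 728 and 675 with dBET1. These are 37.4 and 38.6 CPM with DMSO and 24.3 and 22.1 CPM with dBET1, so both treated libraries lay below both controls. The mean fell from 38.0 ± 0.842 to 23.2 ± 1.52 CPM (SD, n = 2 per group), to 0.610 of the DMSO level. The log2 fold change was -0.71 (SE 0.105, adjusted p = 0.000888 in edgeR). Exons of the antisense gene RARA-AS1 cover 556 bases, 11.7% of the exon length of RARA, and the strand setting of the counts is not stated. RARA-AS1 moved the other way, from 2.42 ± 0.395 to 4.59 ± 0.599 CPM (SD, n = 2 per group), and its part in the value of RARA was not tested.

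RARG (chr12:53210567-53232980, reverse strand) encodes the gamma receptor. It had 455 and 419 counts with DMSO and 121 and 135 with dBET1. In CPM the controls stood at 13.9 and 14.9 and the treated libraries at 4.03 and 4.42. RARG had the largest fold change of the 7 tested members in either direction. It fell to 0.293 of the DMSO level, a log2 fold change of -1.77 (SE 0.173, adjusted p = 0.000117 in edgeR). Its 95% interval, -2.17 to -1.37, did not reach that of RARA, -0.96 to -0.47, although the difference between the genes was not itself tested. The interval of DHRS3, -1.93 to -1.24, overlapped that of RARG, so which of them fell further is not settled. The share of RARG in the summed level of the RAR genes per kb of exon was 25.6% and 26.3% with DMSO, and with dBET1 13.3% and 15.6%. Over the 4 libraries, each gene centred on its mean log2 CPM, the genes with the profile nearest to RARG were DCUN1D5, EMP3 and NRROS, at Euclidean distances of 0.0438, 0.0508 and 0.0672. Their log2 fold changes were -1.74, -1.76 and -1.75.

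RARB (chr3:24687887-25597932, forward strand) encodes the beta receptor, itself a classical target of retinoic acid through the element shown above. It had 0 counts in both DMSO libraries and 2 and 1 with dBET1. All 4 values lie within the 3 counts that a library at 0 allows, so no fold is given. The floor of 3 counts corresponds to 0.0919 to 0.107 CPM and covers counting error only. The intervals given for fold changes come from edgeR's quasi-likelihood fit and also include the spread between libraries. Without a filter on low counts, RARB had an adjusted p of 0.301 in edgeR.

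The RXR genes went the other way. RXRA (chr9:134317098-134440585, forward strand), which encodes the common partner of RARs and of other nuclear receptors, had 1170 and 1085 counts with DMSO and 1593 and 1441 with dBET1. Its CPM were 35.9 and 38.6 with DMSO and 53.1 and 47.2 with dBET1, higher in both treated libraries. The mean rose from 37.2 ± 1.95 to 50.1 ± 4.15 CPM (SD, n = 2 per group), a log2 fold change of 0.43 (SE 0.101, adjusted p = 0.00818 in edgeR). Without dBET1 replicate 1 the log2 fold change was 0.34, with an adjusted p of 0.126 from the same edgeR test.

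RXRB (chr6:33193588-33200665, reverse strand) encodes the beta form of the partner. It had 243 and 196 counts with DMSO and 350 and 369 with dBET1, that is 7.45 and 6.97 against 11.7 and 12.1 CPM. Both treated libraries were above both controls. The log2 fold change was 0.72 (SE 0.163, adjusted p = 0.00692 in edgeR), a ratio of 1.65. Without dBET1 replicate 2 it was 0.68, with an adjusted p of 0.0512 from the same edgeR test. SLC39A7, a zinc transporter gene on the opposite strand, shares 361 bases of exon with RXRB, 9.26% of its exon length. It fell from 31.6 ± 3.22 to 14.1 ± 5.39 CPM (SD, n = 2 per group), and its part in the value of RXRB was not tested. RXRG, the remaining RXR gene, had 0 counts in all 4 libraries.

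**Figure D2:**
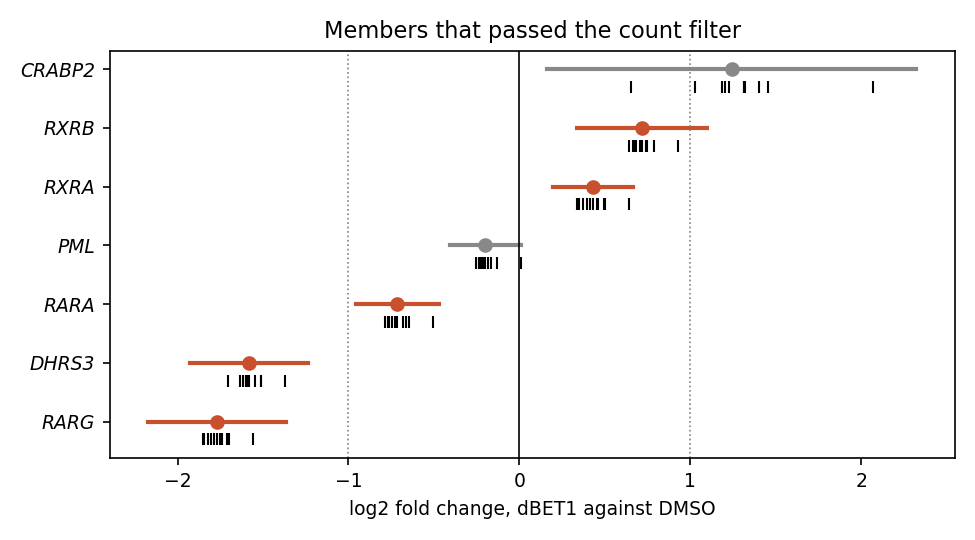
Log2 fold change of dBET1 against DMSO for the 7 members that passed the count filter, with 95% intervals from edgeR's quasi-likelihood fit as bars and the values under each of the 11 alternative settings as ticks. Orange members were called at an adjusted p under 0.05 and grey members were not, dotted lines mark the limit of 1 in either direction, and the ticks of PML reach 0.

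Levels of receptor genes were set against each other as CPM per kb of annotated exon. With DMSO the order was RARA at 8.01 ± 0.178, RXRA at 3.08 ± 0.161, RARG at 2.81 ± 0.133 and RXRB at 1.85 ± 0.0857 CPM per kb (SD, n = 2). RXRA and RARG were neighbours whose libraries nearly met, at 2.97 and 3.20 against 2.72 and 2.91. With dBET1 the order was RARA at 4.89 ± 0.320, RXRA at 4.15 ± 0.344, RXRB at 3.05 ± 0.0773 and RARG at 0.824 ± 0.0539 CPM per kb (SD, n = 2). RARG therefore stood last of the 4 detected receptors after dBET1 and RXRB last with DMSO. When the longest transcript was used as the length, RXRA (8.69 CPM per kb) and not RARA (7.08) came first after dBET1.

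The RAR genes together exceeded the RXR genes with DMSO and lay below them with dBET1. Summed over RARA, RARB and RARG, the RAR genes had 10.6 and 11.0 CPM per kb with DMSO and 5.91 and 5.53 with dBET1. Summed over RXRA and RXRB, the RXR genes had 4.88 and 4.99 with DMSO and 7.39 and 7.01 with dBET1. The RAR to RXR ratio, which no scaling of a library can change, was 2.17 and 2.22 with DMSO but 0.800 and 0.789 with dBET1. With the longest transcript as the length it was 1.84 and 1.86 against 0.665 and 0.669. RARA and RXRA alone had count ratios of 1.04 and 1.00 with DMSO and 0.457 and 0.468 with dBET1. An exact permutation test of 2 against 2 libraries cannot give a two-sided p below 0.333, so no p is given for these ratios.

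**Figure D3:**
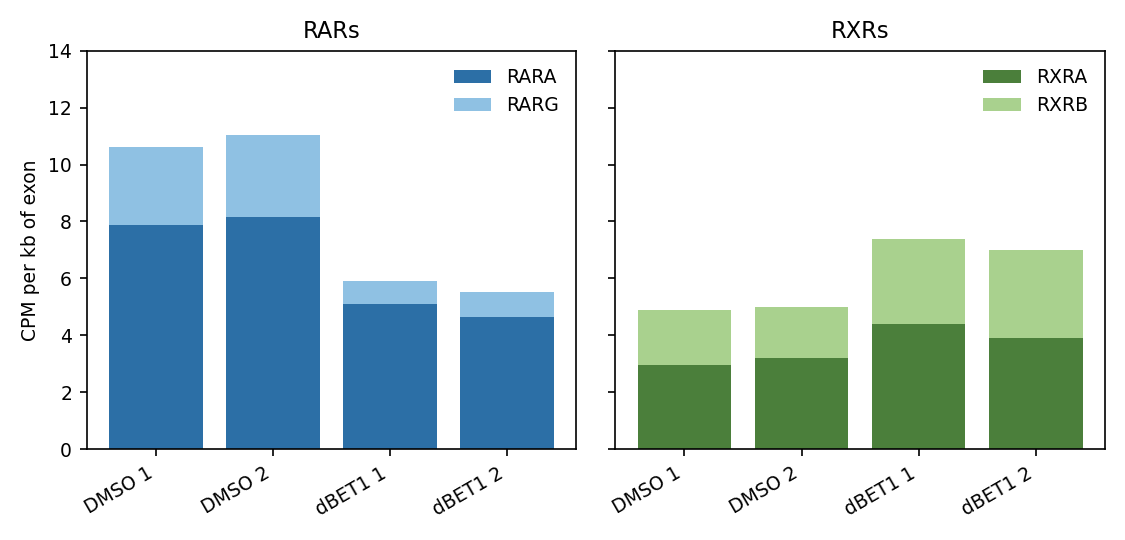
Stacked bars of CPM per kb of exon in each of the 4 libraries, RARA and RARG on the left and RXRA and RXRB on the right, both axes starting at 0. The RAR stacks are 10.6 and 11.0 with DMSO and 5.91 and 5.53 with dBET1, while the RXR stacks are 4.88 and 4.99 with DMSO and 7.39 and 7.01 with dBET1.

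PML (chr15:73994673-74047827, forward strand) counts were 1438 and 1246 with DMSO and 1136 and 1195 with dBET1. In CPM these were 44.1 and 44.3 against 37.9 and 39.1. The treated libraries were lower, but the log2 fold change of -0.20 (SE 0.0896, 95% interval -0.41 to 0.01) was not called, with an adjusted p of 0.0927 in edgeR. With total counts as the scale it was 0.01. The count ratio of RARA to PML, free of scaling, was 0.849 and 0.871 with DMSO and 0.641 and 0.565 with dBET1.

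DHRS3 (chr1:12567910-12618210, reverse strand) encodes a short-chain reductase that turns retinaldehyde back into retinol and is itself induced by retinoic acid. It had 649 and 643 counts in the DMSO libraries and 216 in each dBET1 library. The CPM were 19.9 and 22.9 with DMSO and 7.20 and 7.08 with dBET1, with no overlap. DHRS3 fell to 0.334 of the DMSO level, a log2 fold change of -1.58 (SE 0.149, adjusted p = 9.89e-05 in edgeR). Per kb of exon its level with DMSO, 6.08 ± 0.602 CPM (SD, n = 2), was between those of RARA and PML.

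The retinoic acid hydroxylase genes were nearly or fully silent. CYP26A1 (chr10:93073475-93077885, forward strand) counts were 4 and 3 with DMSO and 10 and 2 with dBET1, so the groups overlapped. Without a count filter its adjusted p was 0.609 in edgeR. CYP26B1 (chr2:72129238-72147862, reverse strand) had 0 counts in every library. CYP26C1, the remaining paralog, had 1 and 0 counts with DMSO and 4 and 4 with dBET1. A same-strand long non-coding RNA of the annotation that is no row of the count table covers 25.3% of the exon length of CYP26A1. None of the CYP26 genes exceeded 10 counts in a library. At this depth a fall or a small rise in them was not detectable, and the smallest detectable rise was not worked out.

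CRABP2 (chr1:156699606-156705816, reverse strand) encodes a carrier that hands retinoic acid to the receptors. It had 16 and 37 counts with DMSO and 72 and 56 with dBET1, or 0.490 and 1.32 against 2.40 and 1.83 CPM. The treated libraries were higher, but the controls differed from each other by more than the treated ones did. The log2 fold change of 1.24 (SE 0.466, 95% interval 0.16 to 2.32) was not called, with an adjusted p of 0.0524 in edgeR. The controls decided the value. It was 0.66 without DMSO replicate 1 (adjusted p = 0.164) and 2.07 without DMSO replicate 2 (adjusted p = 0.00309), both from the same edgeR test. With the replicate number as a block it was 1.32 (adjusted p = 0.0315 in edgeR).

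Another 114 genes of the pathway were taken from lists of roles written from general knowledge, and 84 of them passed the count filter. Of the 84, 24 were higher (28.0% of all tested genes were) and 34 were lower (27.6% of all tested genes were), with a median log2 fold change of -0.14 against 0.05 over all tested genes. With total counts as the scale 32 were higher and 24 were lower. By this scale 57.1% of the calls in the pathway were upwards, against 41.4% with TMM factors.

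Of 11 tested enzymes of retinoid metabolism other than members, 5 were lower and 1 was higher (27.6% and 28.0% of all tested genes). ALDH1A2, which makes retinoic acid from retinaldehyde, had 5363 and 4099 counts with DMSO and 2430 and 2442 with dBET1. It fell from 155 ± 13.1 to 80.5 ± 0.687 CPM (SD, n = 2 per group), a log2 fold change of -0.95 (SE 0.0861, adjusted p = 8.30e-05 in edgeR). RDH11, DHRS4, RDH13 and RDH10, genes for enzymes that interconvert retinol and retinaldehyde, were called lower. Their log2 fold changes were -0.81, -0.83, -0.67 and -0.27. With total counts as the scale, RDH10, RDH13 and DHRS4 were not called and 3 enzymes were higher against 2 lower. RETSAT, a retinol saturase, rose from 29.1 ± 1.13 to 69.6 ± 0.252 CPM (SD, n = 2 per group), a log2 fold change of 1.26. In the list of uptake and binding genes, 8 of 9 others did not pass the filter, among them CRABP1 with 0 counts in all libraries. FABP5, a fatty acid binding protein that also carries retinoic acid, fell from 95 and 73 counts to 34 and 15, a log2 fold change of -1.76.

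Of 13 tested corepressors, 8 were lower and 3 were higher (27.6% and 28.0% of all tested genes). None passed the limit on the fold change (25.4% of all tested genes did), and the median log2 fold change was -0.33. TBL1X and HDAC3, subunits of the complex that NCOR proteins form, each had a log2 fold change of -0.67. PRAME, a repressor of RAR signalling, was abundant and rose from 627 ± 21.7 to 819 ± 19.5 CPM (SD, n = 2 per group), a log2 fold change of 0.39. LCOR had 518 and 290 counts with DMSO and 684 and 771 with dBET1, a log2 fold change of 0.87. With total counts as the scale 5 corepressors were lower and 3 were higher.

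Of 13 tested coactivators, 5 were higher and 6 were lower (28.0% and 27.6% of all tested genes), with a median of -0.04. This list includes ACTB, the beta-actin gene, which was among the 6 lower. The acetyltransferase paralogs KAT2A and KAT2B moved apart. KAT2A fell from 160 ± 12.0 to 78.0 ± 5.30 CPM and KAT2B rose from 18.2 ± 2.74 to 47.2 ± 1.32 CPM (SD, n = 2 per group). PRMT1, an arginine methyltransferase, fell from 400 ± 11.9 to 122 ± 0.144 CPM (SD, n = 2 per group), a log2 fold change of -1.71. NCOA3, a receptor coactivator of the p160 family, rose by a log2 fold change of 0.80. These 4 directions were the same with total counts as the scale, where 6 coactivators were higher and 5 were lower.

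Of 9 tested genes for other partners of RXR, 3 were lower and 2 were higher (27.6% and 28.0% of all tested genes). THRA, a thyroid hormone receptor, fell from 82.9 ± 0.404 to 41.7 ± 0.434 CPM (SD, n = 2 per group), and PPARA fell by 0.97 on the log2 scale. The orphan receptor genes NR4A1 and NR4A2 had log2 fold changes of 1.76 and 0.76, NR4A1 from 15 and 31 counts with DMSO to 89 and 70 with dBET1.

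For PML nuclear bodies and SUMO conjugation, 20 genes other than PML were tested. Of these, 5 were higher and 9 were lower (28.0% and 27.6% of all tested genes), with a median log2 fold change of 0.07. SUMO3, whose counts can include reads of close copies, fell from 180 ± 2.04 to 74.3 ± 0.239 CPM (SD, n = 2 per group). DAXX, a histone chaperone of the bodies, had a log2 fold change of -0.93. SP140, a relative of the body protein SP100, had 3 and 0 counts with DMSO and 39 and 33 with dBET1. It passed the count filter only through the dBET1 libraries. With total counts as the scale 10 genes of this list were higher and 8 were lower.

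Among known targets of retinoic acid other than members, 15 of 33 did not pass the filter. Of the 18 tested, 8 were higher (28.0% of all tested genes were) and 2 were lower (27.6% of all tested genes were). The 18 had a median log2 fold change of 0.22, against 0.05 over all tested genes. Of the higher genes, 6 passed the limit on the fold change (16.9% of all tested genes did so upwards). ITGAM, ITGAX and PDK4 passed the count filter only through their dBET1 libraries, so they could not have been called lower. All of them are among the 8 higher genes and the 6 past the limit, and all enter the median of the 18. These numbers therefore partly reflect the filter and are no result about the targets as a set. ITGAM, the integrin CD11b of maturing granulocytes and monocytes, had 22 and 9 counts with DMSO and 170 and 152 with dBET1, a log2 fold change of 3.39 (SE 0.365, adjusted p = 0.000188 in edgeR). PDK4, a kinase of pyruvate dehydrogenase, had 2 and 3 counts with DMSO and 33 in each dBET1 library. UBA7, the activating enzyme of the ubiquitin-like ISG15, and BTG2, an antiproliferative gene, were chosen after their values were seen. UBA7 had 15 and 23 counts with DMSO and 162 and 188 with dBET1, and BTG2 had 508 and 401 against 3432 and 3162. The homeobox genes MEIS2 and HOXB4 were the 2 lower genes, with log2 fold changes of -0.53 and -0.36, and neither was called with total counts as the scale. TGM2, a transglutaminase gene strongly induced by retinoic acid in promyelocytic cells, had 94.0 ± 5.16 CPM with DMSO and 83.5 ± 5.58 CPM with dBET1 (SD, n = 2 per group) and was not called. Of the 5 members on the same list, DHRS3 fell, CRABP2 had a log2 fold change of 1.24 that was not called, and RARB, CYP26A1 and CYP26B1 were not tested. The 8 monocyte markers summed to 0.735 and 0.712 CPM with DMSO and to 1.93 and 2.03 CPM with dBET1, and their part in these counts was not tested.

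**Figure D4:**
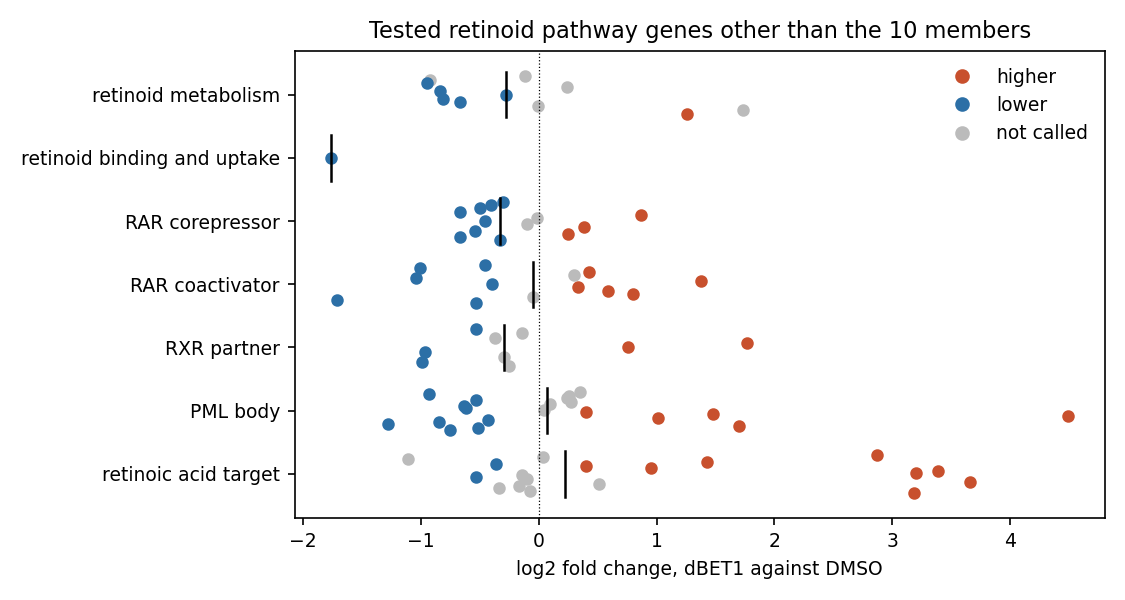
Log2 fold change of dBET1 against DMSO for tested retinoid pathway genes other than the 10 members, by role, with 1 point per gene, orange for higher, blue for lower and grey for not called, and black lines at list medians. Corepressors have a median of -0.33, and the targets of retinoic acid hold 6 genes above 1 and none called below -1. Of these 6, ITGAM, ITGAX and PDK4 passed the count filter only through their dBET1 libraries. Over all tested genes 16.9% were called above 1 and 8.54% below -1.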

How the data were processed

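RNA from cells labelled NB4 was sequenced as 150 bp paired-end reads, in 2 libraries per group. Per the labels and the paper's methods, reads were aligned to hg38 (Ensembl) with HISAT2 2.2.0 and abundances were estimated with StringTie. The deposited values are whole-number counts per gene without normalization. How abundances became counts, and the strand setting, are not given in the sources used here, so counts were also divided by 2 in case reads were counted 2 times. The 10 members, the lists and the tests were chosen with earlier results of these data known.

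Symbols, coordinates and exon lengths came from GENCODE release 44 on hg38, which held 56105 of 64252 identifiers; the others had 2.57% of the counts. No columns were left out (0), and 0 rows named no gene. Counts were filtered with filterByExpr, scaled with TMM factors and tested in edgeR 4.0.16 (R 4.3.3) by the quasi-likelihood test, group being the sole term, and p-values were adjusted by Benjamini-Hochberg for 17971 genes. A call is an adjusted p under 0.05, and the study's limit of 1 on the absolute log2 fold change is given beside it. The standard error is the absolute log2 fold change divided by the square root of F. Replicate libraries were farther apart than sampling noise (chi-square per degree of freedom 23.6 for DMSO and 8.14 for dBET1), so none was a second copy. Steps were tested on simulated data. Promoter sequences are RefSeq's (GRCh38.p14).

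Named were all members, RXRG and CYP26C1, the 2 highest and 2 lowest called genes of each role list, all called genes of retinoid metabolism, a fixed set of markers, and the 3 profiles nearest to the member with the largest change. Other names were chosen after their values were seen, among them TGM2, CRABP1, SLC39A7 and RARA-AS1. A gene that the rule named is not reported here. The alternatives tried were total counts as the scale, DESeq2's size factors, a test in DESeq2 1.42.0, all genes unfiltered, a minimum of 10 counts per library, a replicate block, leaving out libraries 1 at a time, counts divided by 2, the fold limit and, for levels per kb, the longest transcript. With 2 libraries per group, SDs rest on 2 values and single outlying samples could not be tested.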

Additional observations from a re-analysis of the deposited data

How the results depend on the processing

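Of the 7 tested members, RARA, RARG and DHRS3 were lower and called under each of the 11 alternatives run, from -0.79 to -0.50, from -1.85 to -1.56 and from -1.71 to -1.37 on the log2 scale. RXRA and RXRB kept their direction, from 0.34 to 0.64 and from 0.64 to 0.93, and each lost its call when 1 dBET1 library was left out. PML was not called under any of them and turned from -0.20 to 0.0108 with total counts only, a scale that moves the median of all genes by itself. CRABP2 was called with total counts only (1.46), at least 10 counts in every library (1.32), the replicate block (1.32), counts divided by 2 (1.31) and without DMSO replicate 2 (2.07), and not called under the other 6, DESeq2 among them. Leaving out 1 library each gave 1 to 3 members higher, with 1 when dBET1 replicate 1 or dBET1 replicate 2 was left out, 3 members lower throughout, 18 to 27 pathway genes higher and 25 to 38 lower; where a group then had 1 library, it was assumed to vary like the other. The limit of 1 on the fold change left 0 members higher and 2 lower, and 13 pathway genes higher and 5 lower. Over all tested genes that limit left 16.9% higher and 8.54% lower. With no filter on low counts 15 pathway genes were higher. Over all tested genes the share of calls upwards was 50.4% after TMM scaling and 65.2% on the scale of total counts. Same-numbered libraries share only a number: their deviations correlated at 0.042 over 11027 genes, and with the replicate block 3 members were higher and 3 lower, and 28 pathway genes higher and 34 lower. With the longest transcript in place of all exons, the DMSO level per kb was 11.6 CPM for RARA and 0.0511 for CYP26A1, against 8.01 and 0.0387. Depth limits RARB, the CYP26 genes and CRABP2, which had at most 72 counts in a library.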
